A study of Homo sapiens with 6 samples.

Results

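Genes that the tumour suppressor p53 switches on were followed in U2OS cells, a human osteosarcoma line, with and without an edit of ZFP36L1. All 30 genes of the list had a value in both deposited tables, among 56982 identifiers in both, and 29 passed a filter of at least 1 FPKM (fragments scaled to the length of the exons and the size of the library) in at least 2 libraries, which 15001 genes passed in all. The genes were chosen by name from the known targets of p53, with earlier results of these data known. The study sequenced poly(A) RNA of 3 wild-type (WT) libraries and 3 libraries of G3C2, a line labelled ZFP36L1 deficient after CRISPR/Cas9 editing. Both genotypes were in log growth at 65 to 75% confluency, with no drug and no other treatment named in the labels. RNA was harvested on 3 occasions, and the labels do not say which libraries share an occasion. G3C2 is the only edited line, so an effect of the edit and a trait of that line cannot be told apart. Replicates are named 1, b and c. A first table holds replicate 1 of each genotype and a second holds the others. Their scales are separate, so every difference below was taken within a table.

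The transcription factor p53 is kept low in unstressed cells by the ubiquitin ligase MDM2 and its partner MDM4. DNA damage and other stress free it to bind response elements and raise genes that stop the cell cycle, repair DNA, alter metabolism or start apoptosis. Some of its targets, such as MDM2 and the phosphatase gene PPM1D, in turn lower p53. ZFP36L1 binds messenger RNAs at AU-rich elements after the stop codon and brings in enzymes that shorten poly(A) tails.

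Among the members, GDF15, a secreted stress cytokine, had the lowest fitted difference in G3C2, and it holds 3 copies of the AU-rich core TATTTAT in a 3′ untranslated region of 241 bases. The copies are shown because this is the element class that ZFP36L1 recognises. They lie on chromosome 19 of GRCh38, plus strand, in the GENCODE 29 annotation, with the core in capitals.
GDF15 site at chr19:18389037-18389065: ccaaacagctgTATTTATataagtctgtt
GDF15 site at chr19:18389054-18389082: tataagtctgtTATTTATtattaatttat
GDF15 site at chr19:18389119-18389147: atggaactgtgTATTTATttaaaactctg

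FAS, the receptor that starts apoptosis from the cell surface and the member with the other unadjusted p under 0.05, holds 2 copies in a region of 1335 bases on the plus strand of chromosome 10.
FAS site at chr10:89014946-89014974: tgagaagatcaTATTTATgtaaagtatat
FAS site at chr10:89015614-89015642: ttaagaaataaTATTTATatttctgtaaa

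The core was read on the transcribed strand in the longest region after the stop codon annotated for each gene, counting overlapping copies. It was present in 16 of 30 members and in 31.1% of 19141 genes. Members had longer regions, with a median of 1880 bases against 1102. Among regions of 927 to 2680 bases, the middle of the members' lengths, 6 of 14 members held it against 35.7% of all genes. RRM2B and TNFRSF10B held 4 copies each, AEN and FBXO22 held 3, and BAX, BBC3, TP53I3, FDXR, DDB2, XPC and ZMAT3 held none. The fitted log2 differences were -0.02 for RRM2B and 0.18 for TNFRSF10B, and -0.60 for BBC3 and -0.49 for ZMAT3. Whether copies go with the fitted difference was not tested. A match is a string of letters and not a measured binding site.

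On the promoter side, the decameric consensus of a p53 response element was searched in windows of 300 bases, from 250 before to 50 after the start of transcription, taken from RefSeq (GRCh38.p14). The decamer reads the same on both strands. Windows were found for 24 of the 30 members, several genes having more than 1 start. The decamer was in 5 of 36 member windows (13.9%) and in 6.63% of all 35116 windows. A pair of decamers separated by 0 to 13 bases, the form of a full element, was in the window of DDB2 and in 0.0285% of all windows. The stretches of DDB2, FAS, FDXR and AEN are given because these 4 genes differed between libraries in unlike ways below. Decamers are in capitals, and each stretch reads 5′ to 3′ on the strand of its gene.
DDB2 at chr11:47214934-47215023, plus strand: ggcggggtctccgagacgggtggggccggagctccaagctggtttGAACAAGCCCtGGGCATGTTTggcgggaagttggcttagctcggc
FAS at chr10:88991264-88991363, plus strand: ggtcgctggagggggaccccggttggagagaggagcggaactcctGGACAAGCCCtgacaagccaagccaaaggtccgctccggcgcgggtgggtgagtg
FDXR at chr17:74872951-74873050, minus strand: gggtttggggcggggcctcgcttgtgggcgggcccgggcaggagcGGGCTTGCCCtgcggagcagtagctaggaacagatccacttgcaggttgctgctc
AEN at chr15:88621261-88621360, plus strand: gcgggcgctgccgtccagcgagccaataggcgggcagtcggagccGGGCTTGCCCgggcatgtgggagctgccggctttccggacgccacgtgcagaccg

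The fifth window with a decamer was that of SESN1. No decamer in a window says only that these letters are not in those 300 bases.

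The libraries of the second table held between 22614634 and 28977502 reads recovered from the steps of the FPKM values. For the first table the depth could not be recovered. ZFP36L1 itself (ENSG00000185650) had 165.2 FPKM in WT and 238.1 in G3C2 for replicate 1, 57.1 and 105.1 for b and 127.5 and 82.4 for c, so its mRNA does not check the genotype label. Of the fixed mesenchymal markers VIM, SPARC, COL1A1, FN1, RUNX2 and CDH2 were at 6.41 FPKM or more in all 6 libraries, and TERT and CD3E were listed at 0 in all 6. COL1A2 and ALPL stayed below 1 FPKM, and of 5 epithelial markers EPCAM was between 3.05 and 18.7, KRT14 between 0.19 and 6.30, CLDN4 at most 2.36, CDH1 at most 1.01 and KRT5 at most 0.36. The blood marker PTPRC was above 0 in all 6, at most 0.44. Of the endothelial markers VWF was between 0.22 and 1.87, PECAM1 at most 0.12 and CDH5 at most 0.05. In the second table the sum of FPKM was lowest in WT replicate c (235190) and highest in G3C2 replicate c (319282). Mitochondrial transcripts took 13.96% of it in WT replicate c, and between 6.73% and 8.83% in the other 3 libraries.

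No p53 target gene passed the test of genotype. The test was limma on log2(FPKM + 1) with a term for table, adjusted over all 15001 genes at 0.05, a threshold that 0.0467% of them passed. At an unadjusted p under 0.05, 2 of 29 members were lower in G3C2 and 0 were higher, against 7.43% and 6.19% of all genes. The fitted difference was below 0 for 21 of 29 members and for 48.6% of all genes, and its median was -0.09 against 0.01. These values varied with the replicates used. Without replicate c the median was 0.00024 (all genes -0.05), with 4 members lower and 3 higher at an unadjusted p under 0.05. Without replicate b the median was -0.20, with 5 lower and 0 higher, and without replicate 1 it was -0.12 (all genes 0.05), with 1 lower. Over the fits with libraries left out, 1110 to 3369 of the 15001 genes were at an unadjusted p under 0.05 by limma, both directions together. The member counts of these fits are therefore not read as above the background. The number with all G3C2 libraries below all WT libraries of the same table was 4 of 29, against 14.8% of all genes. The reverse held for 2 of 29, against 14.9%. The counts of separated members are near or under the background. In bulk RNA, fewer cells that express a gene and less RNA per cell cannot be told apart.

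**Figure D1:**
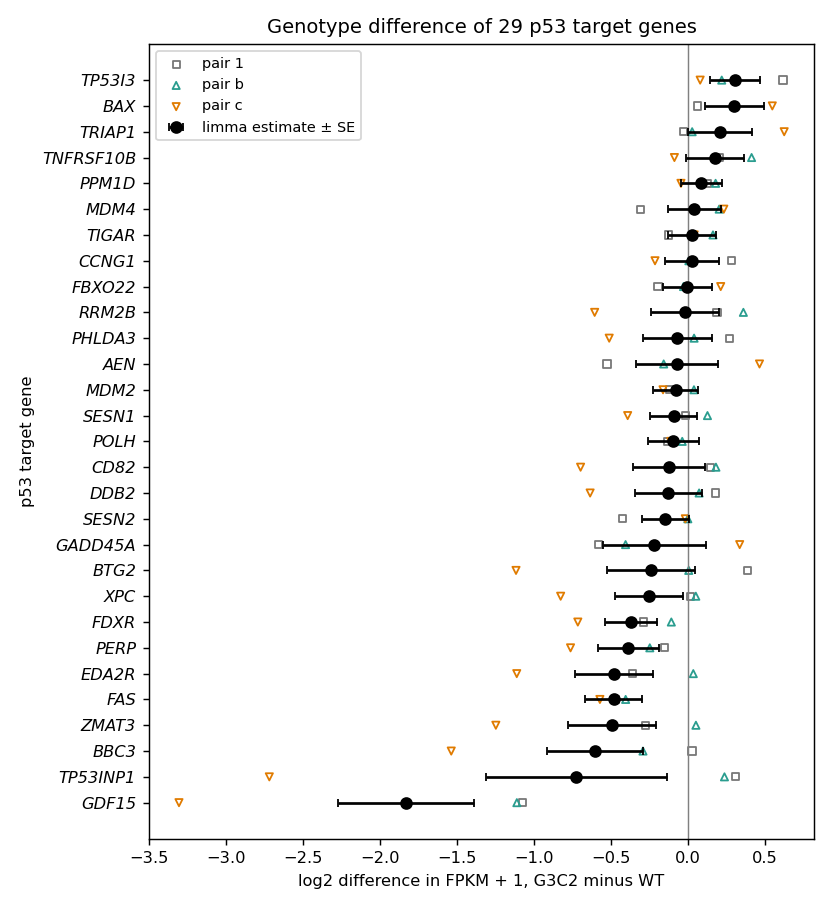
Log2 difference in FPKM + 1, G3C2 minus WT, for the 29 p53 target genes that passed the filter, with the limma estimate and its SE in black and the 3 pairs by label as open symbols. GDF15 lies lowest at -1.83, and pair c lies far left of the others for GDF15, TP53INP1, BBC3, ZMAT3 and BTG2.

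GDF15 (ENSG00000130513, chromosome 19, 18374731 to 18389176) was the member with the widest separation. WT libraries 1, b and c had 2.48, 4.44 and 11.43 FPKM, and G3C2 libraries had 0.65, 1.52 and 0.25. Every G3C2 library was below every WT library of its table. The recovered reads in replicates b and c were 275 and 606 in WT and 84 and 12 in G3C2, the last with an exact 95% Poisson interval of 6.2 to 21 reads, which covers counting error only. The fitted log2 difference was -1.83 (SE 0.44, n = 3 per genotype, lower in 3 of 3 pairs, limma adjusted p = 0.188), and it depends most on replicate c, where the difference was -3.31 against -1.08 and -1.11 in replicates 1 and b. Without replicate b the limma adjusted p was 0.000616, and without replicate c 0.0285, both fits with 1 residual degree of freedom, and over all settings tried it ran from 0.000616 to 0.99999.

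FAS (ENSG00000026103, chromosome 10) had 18.07, 4.82 and 7.21 FPKM in WT libraries 1, b and c and 12.77, 3.40 and 4.52 in G3C2. The G3C2 libraries were below the WT libraries in both tables, by a like amount in each pair. The fitted log2 difference was -0.48 (SE 0.19, lower in 3 of 3 pairs, limma adjusted p = 0.34). ACTA2, annotated on the other strand, overlaps FAS over 8.93% of its exon bases. The library preparation described in the labels does not mark the strand, so reads of overlapping genes cannot be told apart. Of the members, 12 share exon bases with another gene, and 5 share over 10% (MDM2, FBXO22, PHLDA3, XPC and TIGAR).

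PERP, a membrane protein of desmosomes and p53-driven apoptosis, and FDXR, the mitochondrial ferredoxin reductase, were the other 2 members separated downward, named after their values were seen. PERP had 7.73, 9.13 and 14.21 FPKM in WT libraries 1, b and c and 6.86, 7.53 and 7.97 in G3C2. FDXR had 23.98, 18.48 and 25.09 in WT and 19.47, 17.08 and 14.89 in G3C2. The gap was narrow in replicates 1 and b and wide in c for both. Their fitted log2 differences were -0.39 (SE 0.20) and -0.37 (SE 0.17), and their limma adjusted p were 0.452 and 0.41.

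BAX, which opens the outer mitochondrial membrane in apoptosis, and TP53I3, a quinone oxidoreductase, were the 2 members separated upward. BAX had 130.6, 62.2 and 69.0 FPKM in WT libraries 1, b and c and 136.5, 76.6 and 101.5 in G3C2. TP53I3 had 25.6, 31.5 and 33.3 in WT and 39.9, 36.8 and 35.3 in G3C2. The BAX gap was widest in replicate c and the TP53I3 gap in replicate 1. Their fitted log2 differences were 0.30 (SE 0.19) and 0.31 (SE 0.16), and their limma adjusted p were 0.529 and 0.466.

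Genes that feed back on p53 had small fitted differences. MDM2 (ENSG00000135679, chromosome 12) had 57.8, 5.80 and 7.41 FPKM in WT libraries 1, b and c and 53.2, 5.99 and 6.52 in G3C2. Both G3C2 libraries of the second table lay between its WT libraries, and the fitted log2 difference was -0.08 (SE 0.15, limma adjusted p = 0.835). The gap between 57.8 and 5.80 FPKM within WT lies between tables of separate scales and is not read as a difference in level. MDM4 had 10.61, 2.48 and 2.93 in WT and 8.37, 3.01 and 3.62 in G3C2. PPM1D, the phosphatase that switches off p53 signalling, had 32.0, 13.75 and 15.1 in WT and 35.1, 15.7 and 14.6 in G3C2. FBXO22, an F-box protein of a ubiquitin ligase, lay between 5.79 and 7.60 in the second table. The 4 genes had fitted log2 differences between -0.08 and 0.09. MDM4 was lower in G3C2 in the first table and higher in both pairs of the second.

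For most members the genotype difference of the second table was small in replicate b and larger in replicate c. In replicate c 21 of 29 members lay lower in G3C2, with a median of -0.39, against 43.8% of all genes with a median of 0.07. In replicate b 9 of 29 lay lower, with a median of 0.04, against 50.7% with a median of -0.01. In replicate 1 16 of 29 lay lower, with a median of -0.03, against 58.4% with a median of -0.08. Replicates b and c were therefore compared within each genotype, where each side is 1 library and no test can be made.

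In WT cells all 29 members lay higher in replicate c than in b, whereas 42.2% of all tested genes did. One of the 29, SESN2, was at 0 reads in b and 1 read in c and carries no weight, which leaves 28 with reads. At least 1.5-fold on FPKM + 1, 8 of 29 members were higher in c and 0 lower, against 6.71% and 8.13% of all genes. The median log2 difference of the members was 0.35 and that of all genes -0.06. In G3C2 cells the members divided, with 14 higher and 14 lower in c and 1 at 0 in both libraries. Of all genes 44.4% were lower there. At least 1.5-fold, 3 members were higher and 5 lower in G3C2 replicate c, against 12.4% and 8.84% of all genes. With the libraries of the second table scaled to equal sums, a choice made after the data were seen, 6 of 29 members were higher in G3C2 replicate c, with a median of -0.30, against 0.00 as deposited. Such a scaling moves all genes of a library alike, down in G3C2 replicate c and up in WT replicate c, so it could not lower the WT count. The share and median of all genes under it were not computed, so the fall in G3C2 is not read as particular to the members. Mitochondrial transcripts (13.96% in WT replicate c and 8.83% in b) and ZFP36L1 itself (log2 difference, c minus b, 1.15 in WT and -0.35 in G3C2) moved with the members between these libraries, and their part in the result was not tested. All members of a library share its scale, so their common direction is 1 observation of 2 libraries and not 29.

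**Figure D2:**
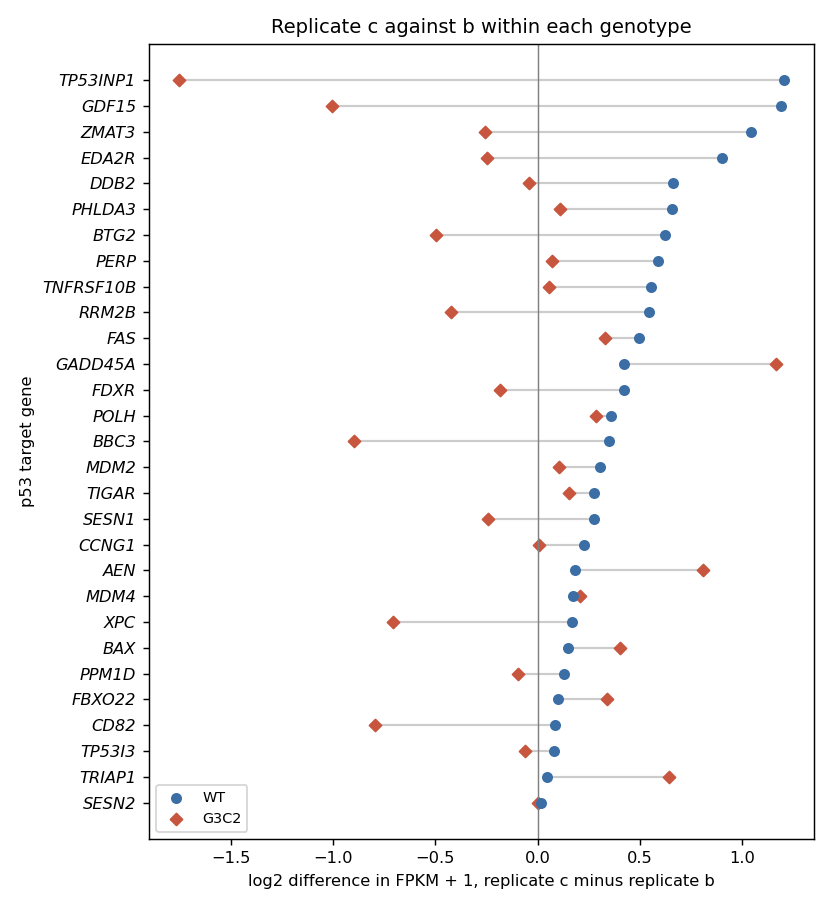
Log2 difference in FPKM + 1 between replicates c and b of the second table for 29 p53 target genes, WT as circles and G3C2 as diamonds, 1 library each, ordered by the WT value. All WT points lie above 0, the highest being TP53INP1 (1.21), GDF15 (1.19) and ZMAT3 (1.04), while G3C2 points run from -1.75 (TP53INP1) to 1.17 (GADD45A).

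TP53INP1, a stress protein of autophagy and cell death, differed most between replicates b and c, in opposite directions. It had 4.24, 9.56 and 23.4 FPKM in WT libraries 1, b and c and 5.49, 11.5 and 2.69 in G3C2. In replicates 1 and b it was somewhat higher in G3C2, and in replicate c WT was the highest and G3C2 the lowest of the second table. The reads behind replicates b and c were 1610 and 3368 in WT and 1724 and 345 in G3C2, with exact 95% Poisson intervals of 3255 to 3484 for the highest and 310 to 383 for the lowest. The fitted log2 difference of -0.72 (SE 0.59, lower in 1 of 3 pairs, limma adjusted p = 0.617) rests on replicate c, without which it was 0.27.

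ZMAT3, an RNA-binding zinc finger protein, had 9.13, 4.27 and 9.88 FPKM in WT libraries 1, b and c and 7.36, 4.47 and 3.58 in G3C2. BBC3, which encodes the BH3-only protein PUMA, had 7.49, 14.00 and 18.10 in WT and 7.65, 11.26 and 5.58 in G3C2. EDA2R, a receptor of the tumour necrosis factor family, had 9.04, 6.87 and 13.69 in WT and 6.83, 7.07 and 5.80 in G3C2. ZMAT3 and EDA2R were close between genotypes in replicate b (log2 differences of 0.05 and 0.04) and BBC3 was lower in G3C2 (-0.29), and all 3 were further apart in replicate c. Their fitted log2 differences were -0.49, -0.60 and -0.48, none of them called by limma (adjusted p of 0.5, 0.461 and 0.465).

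GADD45A, which binds cell cycle and repair proteins after damage, went the other way in G3C2. It had 56.7, 32.7 and 44.2 FPKM in WT libraries 1, b and c and 37.5, 24.5 and 56.1 in G3C2. It was lower in G3C2 in replicates 1 and b and higher in replicate c. Its fitted log2 difference was -0.22 (SE 0.34, limma adjusted p = 0.8), and without replicate c it was -0.49 (limma adjusted p = 0.0436, 1 residual degree of freedom, range over all settings 0.0436 to 0.99999). AEN, an exonuclease that degrades DNA in apoptosis, had 50.4, 17.6 and 20.1 in WT and 34.7, 15.6 and 28.1 in G3C2, the same order.

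**Figure D3:**
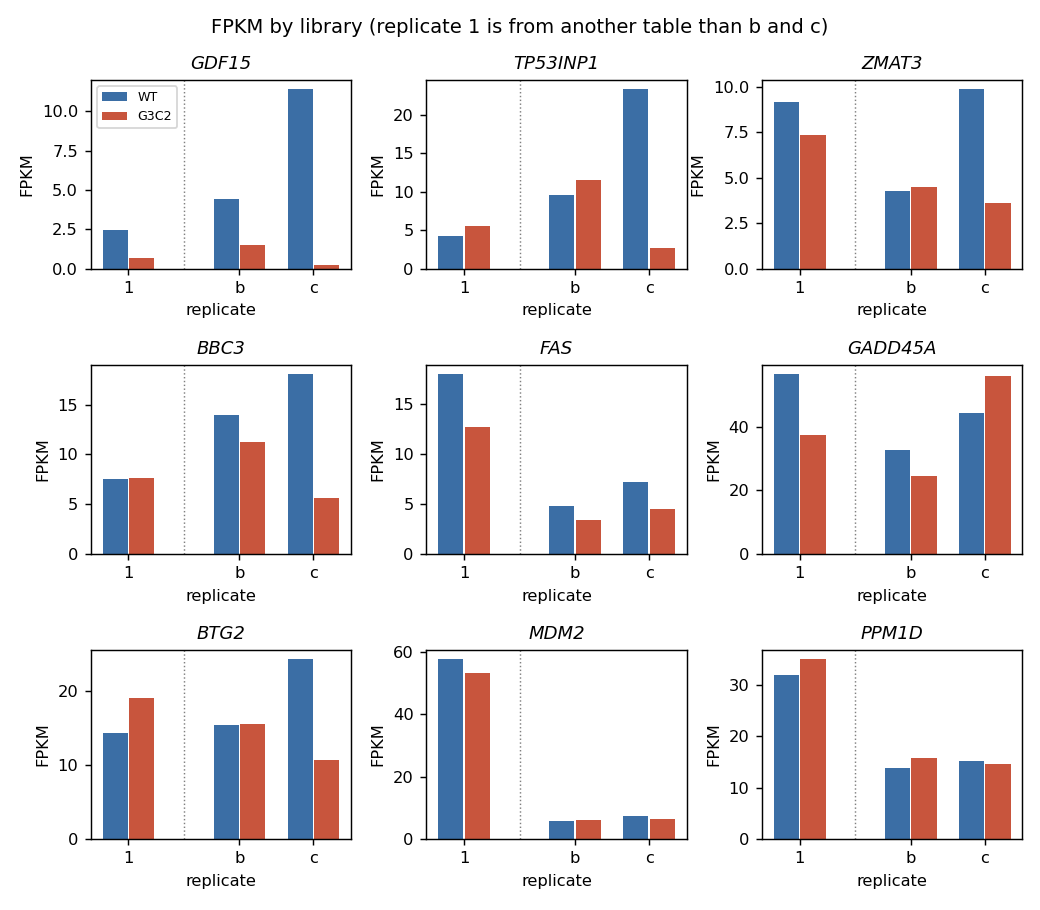
FPKM of 9 p53 target genes in each library, WT in blue and G3C2 in red, with a dotted line between the table of replicate 1 and the table of replicates b and c, whose scales differ. GDF15 and FAS are lower in G3C2 in all 3 pairs, while TP53INP1, ZMAT3, BBC3 and BTG2 are apart mainly in replicate c and the genotypes overlap for MDM2 and PPM1D in the second table.

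By role, the genes of growth arrest and of repair divided most between the genotypes from b to c. The 6 genes of cell cycle and growth had a median log2 difference, c minus b, of 0.52 in WT and -0.38 in G3C2, with 4 of them lower in G3C2 replicate c. All tested genes had medians of -0.06 and 0.05, and 44.4% of them were lower in G3C2 replicate c. With so few genes per role, these values are descriptions only. BTG2, which slows growth and promotes deadenylation, had 14.3, 15.4 and 24.3 FPKM in WT libraries 1, b and c and 19.0, 15.5 and 10.6 in G3C2. CD82, a tetraspanin that restrains cell movement, had 6.47, 4.36 and 4.70 in WT and 7.27, 5.09 and 2.51 in G3C2. CCNG1, cyclin G1, had 50.5 and 59.3 in WT replicates b and c and 50.8 and 51.0 in G3C2, so WT replicate c was the high library.

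The 4 genes of DNA repair and nucleotide supply had medians of 0.45 in WT and -0.23 in G3C2. DDB2, which finds ultraviolet damage in DNA and holds the pair of decamers shown above, had 12.1 and 19.7 FPKM in the WT libraries b and c and 12.8 and 12.3 in G3C2. RRM2B, the p53-inducible subunit of ribonucleotide reductase, had 28.4 and 41.9 in WT and 36.8 and 27.2 in G3C2. XPC, the damage sensor of nucleotide excision repair, had 8.75 and 9.97 in WT and 9.10 and 5.18 in G3C2. DDB2 and RRM2B were highest in WT replicate c, and XPC was lowest in G3C2 replicate c. POLH, a translesion DNA polymerase, had 12.6 and 16.5 in WT and 12.3 and 15.2 in G3C2, the same direction in both genotypes.

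The 10 genes of apoptosis had medians of 0.42 in WT and 0.09 in G3C2, with 3 of them lower in G3C2 replicate c, against 44.4% of all genes. TNFRSF10B, a receptor of the death ligand TRAIL, had 19.1 and 28.5 FPKM in the WT libraries b and c and 25.7 and 26.8 in G3C2. PHLDA3, an inhibitor of AKT, had 29.3 and 46.8 in WT and 30.1 and 32.5 in G3C2. In both genes WT replicate c was the highest of the second table. TRIAP1, which protects cells from apoptosis, had 20.5 and 21.2 in WT and 20.9 and 33.2 in G3C2, so G3C2 replicate c was the high library.

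The 5 tested genes of metabolism and mitochondria had medians of 0.28 in WT and -0.19 in G3C2. SESN1, a sestrin that restrains mTORC1, had 2.94 and 3.77 FPKM in the WT libraries b and c and 3.31 and 2.64 in G3C2. TIGAR, a phosphatase that lowers glycolytic flux, had 11.7 and 14.4 in WT and 13.2 and 14.8 in G3C2. TIGAR shares 42.6% of its exon bases with another gene annotated on its strand, so its value is uncertain. SESN2, the other sestrin, had 10.05 and 7.23 in WT and G3C2 replicate 1 but at most 1 read in any library of the second table, so it passed the filter through the first table alone. SPATA18, a protein of mitochondrial quality control, was the member that did not pass, with at most 0.03 FPKM in any library. In all, 27 of the 29 tested members had at least 100 reads in every library of the second table.

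Across the 29 members, the difference c minus b in WT and in G3C2 had a Pearson r of -0.49 and a Spearman rho of -0.34. These are descriptions across genes that share the same 4 libraries. Of the 29, 14 (48.3%) were higher in WT replicate c and lower in G3C2 replicate c, against 23.8% of all genes. As all 29 were higher in WT replicate c, this is also the count lower in G3C2 replicate c. There the share of all genes was 44.4%, so the joint count adds nothing to the WT result.

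Other genes of the pathway were read from 3 lists. Of 32 genes that regulate or modify p53 activity 30 were tested, and 0 passed the adjusted threshold by limma. At an unadjusted p under 0.05 by the same fit, 3 of the 30 were higher and 0 lower, against 6.19% and 7.43% of all genes. PPP1R13B (log2 difference 0.65, SE 0.16), a p53-binding ASPP protein, and the p53 kinase gene TP53RK (0.65, SE 0.18) were higher in 3 of 3 pairs, neither called by limma (adjusted p of 0.187 and 0.213). HDAC1, a histone deacetylase, had 0.54 (SE 0.20, 0.32) and PPP1R13L, an ASPP family inhibitor of p53, -0.27 (SE 0.14, 0.474), by the same fit.

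Of 83 further genes reported as p53 targets 73 were tested, and by limma 0 passed the adjusted threshold, with 5 higher and 7 lower at an unadjusted p under 0.05, where all genes had 6.19% and 7.43%. CDKN1A, the inhibitor of cyclin-dependent kinases p21, had 69.0, 65.7 and 133.9 FPKM in WT libraries 1, b and c and 87.9, 102.5 and 75.5 in G3C2. It was higher in G3C2 in replicates 1 and b and lower in c, with a fitted difference of 0.05 (SE 0.31, limma adjusted p = 0.95). CCNK, cyclin K, had a log2 difference of 0.72 (SE 0.13), EPHA2, an ephrin receptor, 0.98 (SE 0.23), STEAP3, a metalloreductase, -1.07 (SE 0.24) and TLR3, a sensor of double-stranded RNA, -0.61 (SE 0.16). Each went the same way in 3 of 3 pairs, none called by limma (adjusted p of 0.135, 0.185, 0.18 and 0.211). From b to c, 47 of the 73 were higher in WT (64.4%) and 37 in G3C2 (50.7%), with medians of 0.18 and 0.01. Of all tested genes 42.2% and 54.3% were higher.

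Cell cycle genes that p53 lowers through p21 and the DREAM repressor complex lay opposite to the members in WT. All 28 of 28 were lower in WT replicate c than in b, with a median log2 difference of -0.69, and all 28 were higher in G3C2 replicate c, with a median of 0.73. Of all tested genes 56.7% were lower in WT replicate c and 54.3% higher in G3C2 replicate c. At least 1.5-fold, 20 of the 28 were lower in WT and 19 higher in G3C2, against 8.13% and 12.4% of all genes. CCNB1, cyclin B1, had 167.0 and 95.4 FPKM in the WT libraries b and c and 134.0 and 246.0 in G3C2. AURKA, the Aurora A kinase, had 34.9 and 24.4 in WT and 36.4 and 67.4 in G3C2, and it and CENPF, a kinetochore protein, were higher in G3C2 in 3 of 3 pairs (limma adjusted p = 0.387 and 0.605). Genes of this list are highest in dividing cells. Between replicates b and c their levels ran opposite to those of the members in WT. In G3C2 all the listed genes were higher in c, while the members divided. The part of the listed genes in the members' difference was not tested.

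**Figure D4:**
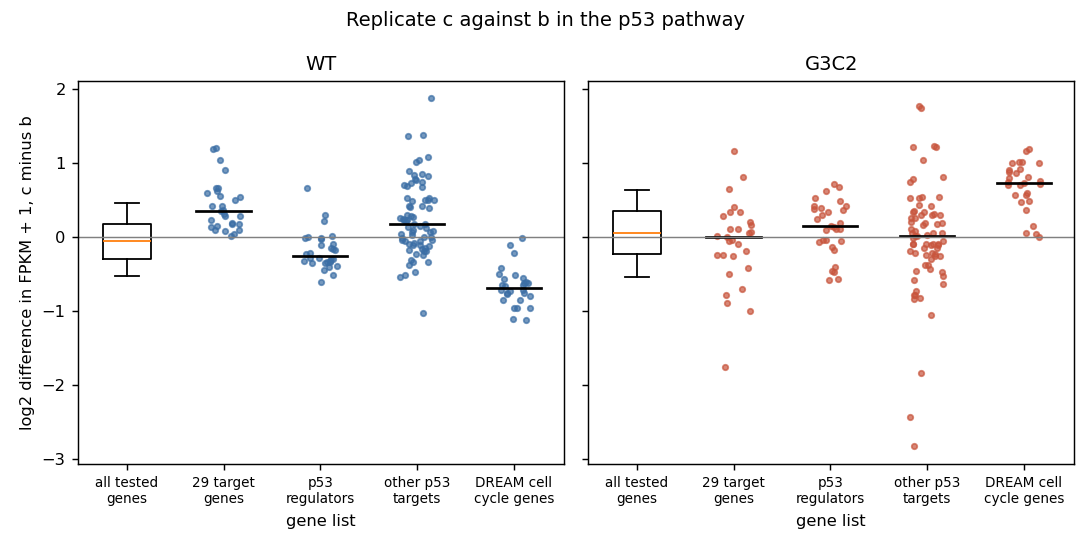
Log2 difference in FPKM + 1, replicate c minus b, in WT (left) and G3C2 (right), 1 library each: the box gives the median, quartiles and 10th to 90th percentiles of all 15001 tested genes, points are genes of a list and bars are list medians. The 29 targets lie above 0 and the 28 DREAM genes below 0 in WT (medians 0.35 and -0.69), and the DREAM genes lie above 0 in G3C2 (median 0.73).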

How the data were processed

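Poly(A) RNA of 6 U2OS libraries was analysed from 2 tables of FPKM that the authors deposited, per the file headers. CASAVA, HISAT2 and GRCh38.p12 are named in the submitters' processing notes, and the counting tool is not given in the sources used here. Identifiers were matched to symbols with GENCODE 29. The members and lists were chosen with earlier results of these data known. FPKM were log2-transformed with a pseudocount of 1 and fitted over 15001 genes with limma 3.58.1 in R 4.3.3 (terms for genotype and table, trended variance, Benjamini-Hochberg adjustment over all genes). On this scale the change of low genes is understated. The fit was tested on simulated data. The labels name 3 harvests without tying libraries to them, so p-values measure the spread between libraries, which may be technical in part.

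In the second table between 97.28% and 97.36% of values were whole reads within 0.02 reads, given GENCODE exon lengths, which gave the recovered reads. Same-labelled libraries deviated together from their group means (r = 0.93, 0.80 and 0.60 for 1, b and c), which the separate tables alone can produce. Within the second table r was -0.16. Values in every library were given by rule for MDM2, MDM4 and PPM1D and for members with an unadjusted p under 0.05, the same direction in 3 pairs at a log2 difference of 0.4 or more, or a 2-fold difference between b and c, and for other members after their values were seen. In the other lists CDKN1A and up to 4 genes with the smallest p and 1 direction in 3 pairs were named, CCNB1 after its values were seen. Some genes the rule names are not reported here. Alternatives covered the pseudocount, filters, blocks, scaling, limma-voom on recovered reads, and libraries left out. Python 3.11.15, pandas 2.3.3, scipy 1.17.1 and matplotlib 3.10.9 were used.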

Additional observations from a re-analysis of the deposited data

Results flagged for a closer look

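TP53INP1 and GDF15 differed at least 1.5-fold in opposite directions between replicates b and c in the genotypes. TP53INP1 had a log2 difference, c minus b, of 1.21 in WT and -1.75 in G3C2. GDF15 had 1.19 in WT and -1.005 in G3C2. Each value compares 1 library with 1 other, and the difference between the genotypes was not tested.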

How the results depend on the processing

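No member passed the adjusted threshold in the 11 settings that kept all libraries or the whole second table. Calls over all genes, 3 higher and 4 lower, were 0 and 0 with no filter, with no table term, in the second table by itself and with limma-voom, 0 and 1 with the replicate block, 1 lower at a mean FPKM of at least 5, and 5 higher with equal medians. The replicate block changed no member's call. The crossed block, pairing WT b with G3C2 c, gave 3 higher and 5 lower over all genes. Leaving out libraries gave 0 to 448 genes higher and 0 to 457 lower, and 0 to 2 members lower, GDF15 without replicate b or without c and GADD45A without replicate c. At a fold of 2, 3 members were higher in WT replicate c, and 1 higher and 2 lower in G3C2 replicate c. The share of all genes at that fold was not computed, so these counts have no background. With equal sums the G3C2 counts were 6 above b and 1 at least 1.5-fold higher, with a median of -0.30. All genes, which this scaling moves alike, were not counted under it. Log2 differences that changed sign were all uncalled: FBXO22 (0.0032 with a pseudocount of 0.1, 0.093 in the second table, 0.028 with equal medians, 0.026 with limma-voom), AEN (0.15 in the second table, 0.079 with limma-voom), CCNG1 (-0.10 in the second table, -0.16 with quantile normalization, -0.19 with limma-voom), TIGAR (-0.048 with quantile normalization), RRM2B (0.012 with equal medians) and PPM1D (-0.0058 with limma-voom). Over the left-out libraries and pairs the lowest and highest values were -0.37 and 0.15 for AEN, -0.10 and 0.14 for CCNG1, -0.13 and 0.093 for FBXO22, -0.066 and 0.22 for MDM4, -0.075 and 0.10 for TIGAR, -1.24 and 0.27 for TP53INP1, -0.21 and 0.28 for RRM2B, -0.56 and 0.20 for BTG2, -0.20 and 0.057 for SESN1, -0.24 and 0.17 for PHLDA3, -0.28 and 0.13 for DDB2, -0.42 and 0.034 for XPC, -0.31 and 0.16 for CD82, -0.60 and 0.064 for GADD45A, -0.17 and 0.0022 for MDM2, -0.20 and 0.0036 for POLH and -0.0086 and 0.36 for TRIAP1. The cause of these changes of sign was not tested. The 11 other tested members kept their direction in these settings. Without a library of replicate 1 the estimate is that of the second table. Depth limits SESN2, with at most 1 read in the second table, and GDF15, with 12 reads in G3C2 replicate c. For replicate 1 no depth could be recovered.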
